A study of Mus musculus with 6 samples.

Results

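The unfolded protein response and the integrated stress response were examined in mouse spinal cord 4 h after a contusion, through 32 genes taken by symbol from the 43432 gene identifiers of the count tables. The genes were the sensors of the pathways, the transcription factors they act through, the targets of ATF4, genes of amino acid synthesis, and the chaperones and folding enzymes of the endoplasmic reticulum (ER). After a filter on low counts, 31 of the 32 were among the 13560 genes tested, and Phgdh was not. The contused group (SCI) was made of 3 wildtype C57BL/6 mice with a unilateral blow of 50 kdyn at cervical level 5 by an Infinite Horizon impactor. The sham group was made of 3 wildtype C57BL/6 mice with a laminectomy, the removal of bone over the cord, and no blow. For sham mice no collection time was used. Each library came from spinal cord tissue of 1 mouse and mixes all of its cells, so fewer cells of a type and less RNA per cell cannot be told apart.

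The ER folds secreted and membrane proteins, and unfolded proteins there activate 3 sensors. ATF6 is a membrane-bound transcription factor released by cleavage, IRE1α (Ern1) splices the mRNA of XBP1, and PERK (Eif2ak3) phosphorylates the translation factor eIF2α. PERK, PKR, GCN2 and HRI all phosphorylate eIF2α, and this shared step, the integrated stress response, slows translation in general while it favours that of ATF4 and ATF5. ATF4 and its partner CHOP (Ddit3) then drive genes of amino acid supply, of redox control and of feedback on eIF2α, whereas ATF6 and XBP1 drive chaperones and the degradation of misfolded proteins. Cleavage, splicing, phosphorylation and translation are not visible in counts per gene, so the values below describe mRNA levels alone.

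Some promoters of the ER branch carry a known sequence, shown here for the genes that hold it, which include 4 major chaperones and Pdia6 and Creld2. RefSeq windows from 250 bases before to 50 bases after the start (GRCm38.p6) were found for 28 of the 32 genes, and none for Atf6, Ppp1r15b, Hyou1 and Manf. The ER stress response element, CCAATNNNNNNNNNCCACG on either strand, was present in 6 of these 28 genes (21.4%) and in 37 of all 27025 genes with a window (0.137%). The element is known from genes of this pathway, and the 32 were listed by pathway, so these shares are a description and not a test. Pdia3, Pdia4, Dnajb9 and Sdf2l1 had windows without these letters. Each sequence is written 5′ to 3′ along the strand of its gene, with the element in capitals; in Calr and Creld2 it reads on the opposite strand.
Hspa5: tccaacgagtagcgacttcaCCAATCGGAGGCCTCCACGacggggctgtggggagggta
Hsp90b1: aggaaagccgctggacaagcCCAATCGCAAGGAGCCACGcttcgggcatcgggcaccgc
Calr: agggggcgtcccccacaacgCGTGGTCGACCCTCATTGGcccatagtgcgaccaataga
Canx: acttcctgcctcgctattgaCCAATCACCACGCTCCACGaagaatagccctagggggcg
Pdia6: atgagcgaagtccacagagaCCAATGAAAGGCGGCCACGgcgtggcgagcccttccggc
Creld2: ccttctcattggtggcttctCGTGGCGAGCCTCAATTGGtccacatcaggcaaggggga
These stretches lie at chr2:34772005-34772063 (plus strand, Hspa5), chr10:86705618-86705676 (minus strand, Hsp90b1), chr8:84847055-84847113 (minus strand, Calr), chr11:50325780-50325838 (minus strand, Canx), chr12:17266471-17266529 (plus strand, Pdia6) and chr15:88819500-88819558 (plus strand, Creld2). The element began between 65 bases (Hspa5) and 212 bases (Hsp90b1) before the RefSeq start, and Hsp90b1 held another one on the opposite strand, 107 bases before its start.

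Herpud1 held the shorter second form of the element, ATTGG and CCACG joined by any 1 base, which 12 of the 27025 genes hold (0.0444%). Herpud1 and Chac1 also held the ATF4-C/EBP composite site TGATGCAA, found on either strand in 1.03% of genes. A looser form, TGATGNAA, added after the windows had been seen, was in Trib3, Chac1, Asns and Herpud1 and in 4.51% of genes. The core of the XBP1 element, GACGTGG, was in Pdia6 and in 2.73% of genes. A match in such a window is a description of the letters and says nothing of binding.
Herpud1: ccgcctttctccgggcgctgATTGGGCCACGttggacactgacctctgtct
Chac1: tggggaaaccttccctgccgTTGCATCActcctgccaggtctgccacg
The Herpud1 stretch is chr8:94386357-94386407 (plus strand), with the second form in capitals. The Chac1 stretch is chr2:119351029-119351076 (plus strand), with the composite site in capitals as it reads on the opposite strand.

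No gene of the 32 passed the test for a difference between SCI and sham. With edgeR's quasi-likelihood F test, adjusted by Benjamini-Hochberg over the whole table and called under 0.05, 0 of the 31 tested genes were called higher and 0 lower, against 126 of all 13560 genes (0.929%). DESeq2 and limma voom also called 0 of the 31. Before adjustment, 4 of the 31 had an edgeR p under 0.05, with Atf4 and Ddit3 higher and Pdia6 and Sdf2l1 lower in SCI, beside 7.38% of all genes tested. Every SCI library was above every sham library for 2 genes, Atf4 and Ddit3, beside 7.73% of all genes. Every SCI library was below every sham library for 3 genes, Pdia3, Pdia6 and Creld2, beside 5.94% of all genes. With so few genes these counts lie near the shares over all genes, and nothing is read from them about the list.

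The intervals give the range of differences that the counts leave possible for each gene. The 95% interval of the log2 fold change lay within -1 and 1, a 2-fold difference either way, for 27 of the 31 genes, beside 71.0% of all genes tested. The exceptions were Trib3, Ppp1r15a, Sdf2l1 and Manf. The 31 genes had a median level of 21.4 CPM, against 15.3 CPM over all genes tested, and levels bear on the width of an interval. The median log2 fold change of SCI over sham was -0.052 over the 31 genes and -0.002 over all genes tested, and the median size of the change was 0.16 and 0.19 on the same scale. The number with a positive log2 fold change was 12, and the number with a negative one was 19. By branch, the median log2 fold change was 0.22 for the 6 transcription factors and targets of the integrated stress response. It was -0.07 for the 6 sensors, 0.09 for the 2 tested genes of amino acid synthesis and -0.09 for the 2 subunits of the eIF2α phosphatase. For Xbp1 and the 2 degradation genes it was -0.07, and for the 12 chaperones and folding enzymes -0.10. Leaving out 1 library moved the median of the transcription factors and targets between 0.01 (without sham 3) and 0.33 (without sham 2). That of the sensors moved between -0.12 (without SCI 3) and 0.01 (without sham 2). The branches share the same 6 libraries, and the difference between branches was not tested.

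**Figure D1:**
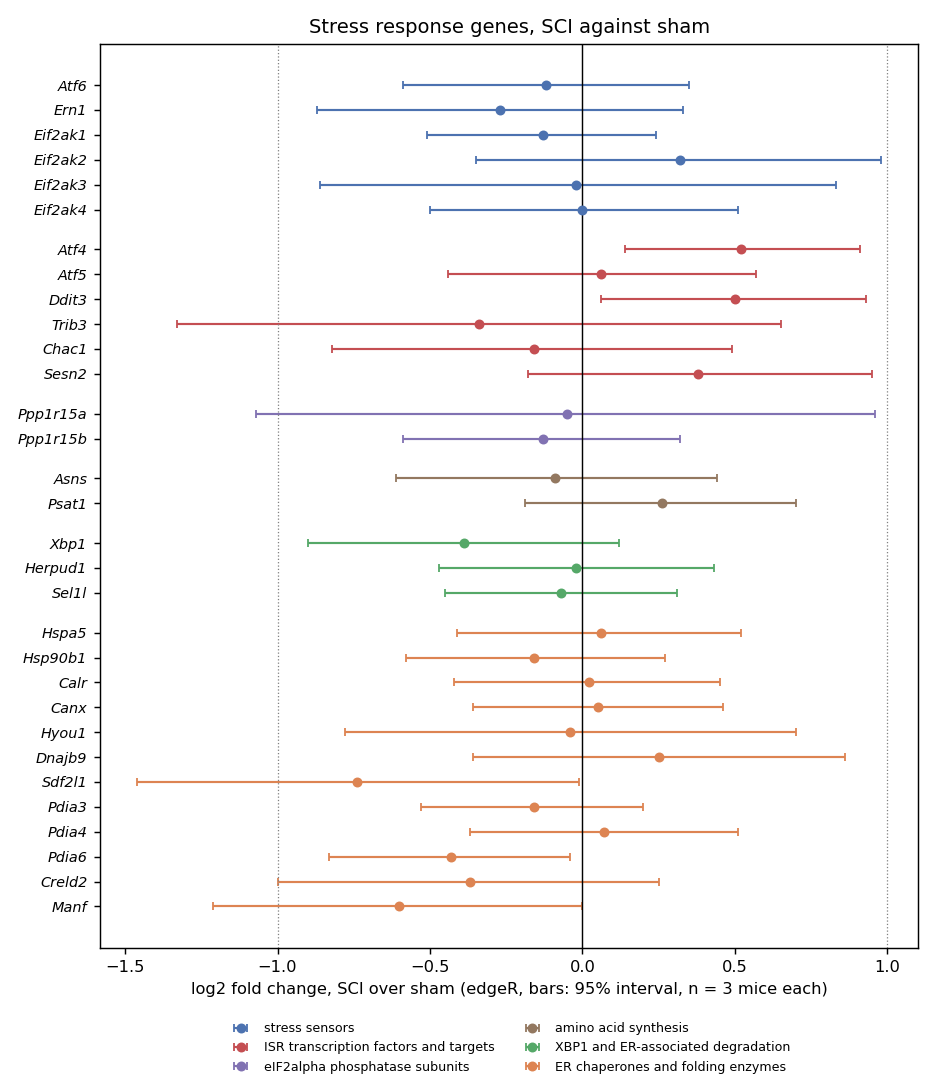
Log2 fold change of SCI over sham for the 31 genes tested, grouped and coloured by branch, with the 95% interval as bars and dotted lines at -1 and 1 (n = 3 mice each). Atf4 and Ddit3 have intervals above 0, Sdf2l1 and Pdia6 have intervals below 0, and none of the 31 passed the adjusted test.

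The sensors were present in every library, their groups overlapped, and all 6 intervals of the log2 fold change lay within -1 and 1. Levels are given as TMM-scaled CPM, the count relative to the library total after edgeR's scaling. Because 3′ libraries count transcript ends, these values do not scale with transcript length. Ern1, the sensor that splices Xbp1, had 6.17, 12 and 12.1 CPM in SCI libraries 1 to 3, against 10.6, 14.2 and 10.8 CPM in sham libraries 1 to 3. SCI 1 alone lay below all sham libraries, and the log2 fold change was -0.27 ± 0.28 (SE; edgeR adjusted p = 0.921). Atf6 had 16.8, 16.7 and 13.9 CPM in SCI, against 18.4, 13.8 and 20.3 CPM in sham, a log2 fold change of -0.12 ± 0.22 (edgeR adjusted p = 0.968). SCI 3 was the lowest SCI library for Atf6, and sham 2 was as low.

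The 4 kinases of eIF2α respond to different signals, and none was called. Eif2ak3 (PERK), which senses unfolded protein in the ER, averaged 3.32 ± 1.03 CPM in SCI and 3.24 ± 0.899 CPM in sham (SD, n = 3 each). Eif2ak4 (GCN2), which senses uncharged tRNA, averaged 10.7 ± 0.894 CPM in SCI and 10.5 ± 1.76 CPM in sham. Eif2ak1 (HRI), the haem-regulated kinase, averaged 54.0 ± 3.55 CPM in SCI and 59.3 ± 8.43 CPM in sham. Eif2ak2 (PKR), which binds double-stranded RNA, had the highest log2 fold change of the sensors, 0.32 ± 0.31 (edgeR adjusted p = 0.913). Its levels were 6.77, 6.21 and 8.13 CPM in SCI, against 6.70, 6.26 and 3.25 CPM in sham, so that sham 3 alone stood low, on 12 counts, and the log2 fold change without it was 0.11.

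Atf4, the effector of the integrated stress response, was the gene with the smallest p of the 32. It had 194, 187 and 203 CPM in SCI libraries 1 to 3, against 144, 136 and 124 CPM in sham libraries 1 to 3. All SCI libraries lay above all sham libraries, and the spread within each group was small, with means of 194 ± 8.15 CPM in SCI and 135 ± 10.2 CPM in sham (SD, n = 3 each). The fold was 1.44, with a 95% interval of 1.10 to 1.87, and the log2 fold change was 0.52 ± 0.18 (SE; edgeR adjusted p = 0.386). Atf4 (ENSMUSG00000042406) lies at chromosome 15, 80255184 to 80257541 on GRCm38, and no other gene of GENCODE M21 overlaps it there. Atf4 is the one gene of the 32 whose unadjusted p was under 0.05 in all 14 alternative analyses, where its log2 fold change ranged between 0.47 and 0.56 and its lowest adjusted p was 0.0596, with the hepatocyte level as a covariate.

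Ddit3, which encodes CHOP, a transcription factor downstream of ATF4, showed a like difference at a lower level. It had 31.8, 32.3 and 33.3 CPM in SCI, against 23.2, 18.1 and 28.7 CPM in sham. The SCI libraries lay close together and above every sham library. The fold was 1.41 (95% interval 1.04 to 1.90), and the log2 fold change was 0.50 ± 0.20 (edgeR adjusted p = 0.562). Ddit3 (ENSMUSG00000025408, chromosome 10, 127290774 to 127296288) overlaps Mars and Gm4189 on the other strand and an identifier of the same name on its own strand. Without sham 2, the lowest sham library for Ddit3, the log2 fold change was 0.32, and without sham 3, the highest, it was 0.65. The strand setting of the counting is not given, so reads of these genes may be divided otherwise than their transcripts.

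The targets that ATF4 and CHOP are known for had log2 fold changes of both signs. Sesn2, a leucine-binding inhibitor of mTORC1 signalling, had 10.2, 11.1 and 11.1 CPM in SCI, against 8.27, 10.3 and 5.42 CPM in sham. Here sham 2 reached into the range of SCI, and the log2 fold change was 0.38 ± 0.27 (edgeR adjusted p = 0.853), or 0.21 without sham 3 and 0.60 without sham 2. Trib3, a pseudokinase that restrains ATF4 and CHOP, had 1.93, 2.02 and 3.77 CPM in SCI, against 2.23, 4.91 and 1.90 CPM in sham. It rests on 124 counts in all, and its 95% interval, -1.33 to 0.65 on the log2 scale, is wide. Chac1, which breaks down glutathione and holds the composite site shown above, had 6.53, 5.77 and 6.15 CPM in SCI, against 8.53, 7.41 and 4.07 CPM in sham (log2 fold change -0.16 ± 0.31, edgeR adjusted p = 0.969). Both groups overlapped for Trib3 and Chac1.

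Atf5, a transcription factor whose translation is favoured in the same way as that of ATF4, varied within the sham group. Its levels were 64.7, 71.6 and 82.1 CPM in SCI, against 70.2, 94.0 and 42.6 CPM in sham. Sham 2 was the highest and sham 3 the lowest of the 6 libraries, and the log2 fold change was 0.06 ± 0.24 (edgeR adjusted p = 0.981). Summed over the 6 genes of this branch, levels were 309, 309 and 339 CPM in SCI, against 257, 271 and 207 CPM in sham, and Atf4 held the largest share of each sum. The 4 genes of the branch that hold a positive log2 fold change are Atf4, Ddit3, Sesn2 and Atf5.

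**Figure D2:**
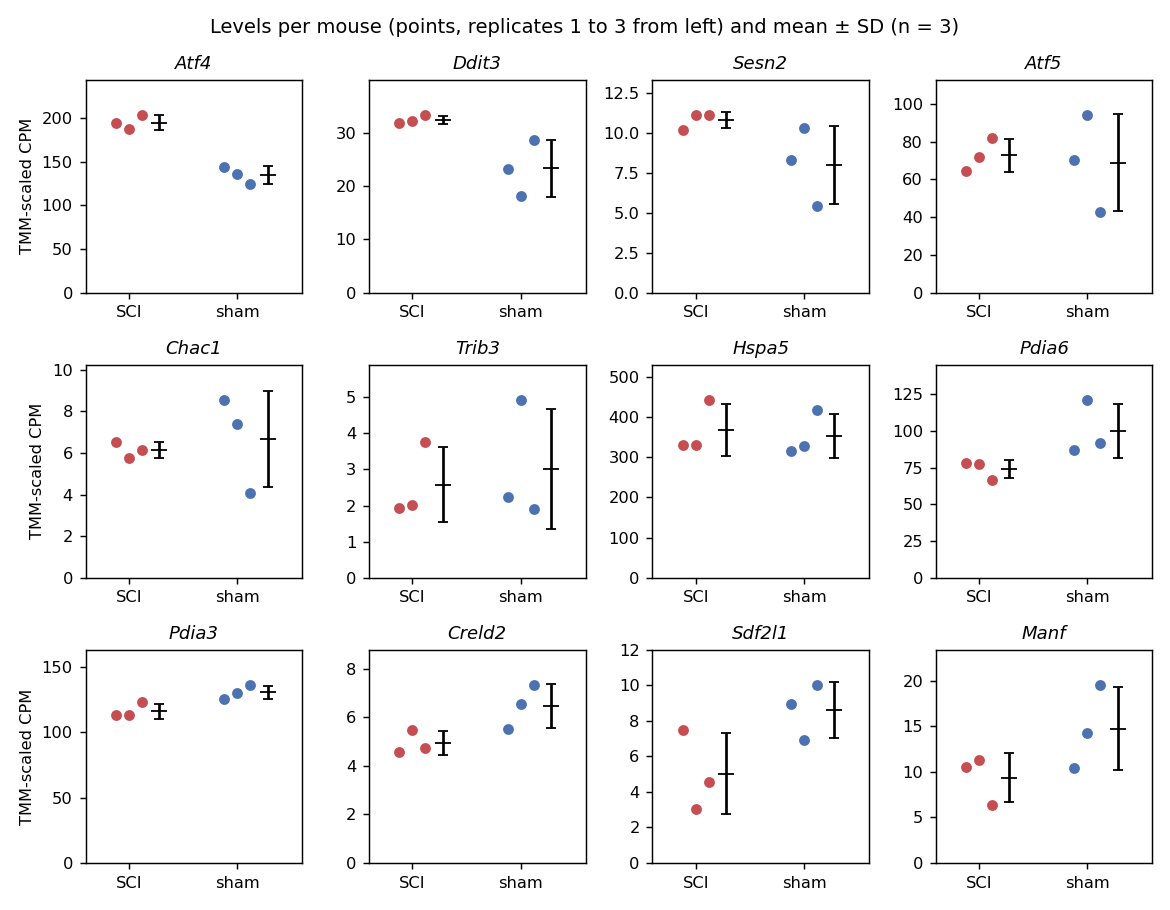
TMM-scaled CPM of 12 genes in each mouse (points, SCI left of sham, replicates 1 to 3 from left) with the mean and SD beside them (n = 3 each). The groups do not overlap for Atf4 and Ddit3, higher in SCI, and for Pdia6, Pdia3 and Creld2, lower in SCI, and they overlap for the other 7 genes.

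The subunits that direct the phosphatase back to eIF2α overlapped between the groups. Ppp1r15a (GADD34), the inducible subunit and a target of ATF4, had 2.78, 3.03 and 2.58 CPM in SCI, against 1.84, 2.02 and 5.69 CPM in sham. Sham 3, the library of least depth, held 21 counts of it and stood above the rest. The log2 fold change was -0.05 ± 0.48 (edgeR adjusted p = 0.993), and the interval, -1.07 to 0.96, leaves differences of up to 2-fold either way undetectable at this depth. Ppp1r15b (CReP), the subunit made without stress, averaged 24.4 ± 4.83 CPM in SCI and 26.5 ± 4.46 CPM in sham.

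Genes of amino acid synthesis, which ATF4 drives when amino acids run short, overlapped between the groups. Asns, asparagine synthetase, had 19.3, 28.3 and 14.3 CPM in SCI, against 23.0, 18.6 and 25.2 CPM in sham (log2 fold change -0.09 ± 0.25, edgeR adjusted p = 0.980). Psat1, of the serine pathway, had 105, 117 and 92.0 CPM in SCI, against 98.7, 62.5 and 102 CPM in sham (log2 fold change 0.26 ± 0.21, edgeR adjusted p = 0.877, or 0.05 without sham 2). Sham 2 was the low library for Psat1, and SCI 3 for Asns. Phgdh, the first enzyme of the serine pathway, had 10, 3 and 2 counts in SCI and 5, 8 and 9 counts in sham, too few for the filter, and the annotation names a pseudogene of it (Phgdh-ps1), so its counts are uncertain.

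In the XBP1 and degradation branch the groups overlapped for all 3 genes. Xbp1, whose counts join the spliced and unspliced forms, had 14.4, 16.6 and 10.5 CPM in SCI, against 14.0, 20.9 and 19.8 CPM in sham. Its log2 fold change was -0.39 ± 0.24 (95% interval -0.90 to 0.12, edgeR adjusted p = 0.813), or -0.24 without SCI 3. Herpud1, an ER membrane protein of the degradation machinery, had 168, 169 and 180 CPM in SCI, against 153, 230 and 141 CPM in sham, and sham 2 alone stood high. Sel1l, the partner of the ubiquitin ligase HRD1, had 160, 164 and 157 CPM in SCI, against 184, 157 and 166 CPM in sham. Their log2 fold changes were -0.02 ± 0.21 and -0.07 ± 0.18 (edgeR adjusted p = 0.994 and 0.975).

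The major ER chaperones were close to sham in SCI, and their groups overlapped. Hspa5 (BiP), the Hsp70 chaperone that also holds the sensors inactive, had 329, 331 and 441 CPM in SCI, against 316, 328 and 416 CPM in sham. Each group held 2 libraries close together and a higher one, replicate 3 in both. The log2 fold change was 0.06 ± 0.22, with a 95% interval of -0.41 to 0.52 (edgeR adjusted p = 0.981), so a fold above 1.43 lies outside it. Calr, a lectin chaperone of glycoproteins, had 331, 320 and 405 CPM in SCI, against 336, 373 and 335 CPM in sham (log2 fold change 0.02 ± 0.20, edgeR adjusted p = 0.995). A pseudogene, Calr-ps, is named in the annotation, so the counts of Calr may be shared with it. Canx, the membrane-bound lectin chaperone, had 268, 271 and 321 CPM in SCI, against 282, 271 and 279 CPM in sham, and Hsp90b1 (GRP94), the ER form of Hsp90, had 282, 263 and 342 CPM in SCI, against 309, 343 and 335 CPM in sham.

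Among the SCI libraries, SCI 3 held the highest level of Hspa5, Calr, Canx, Hsp90b1, Pdia4, Pdia3 and Hyou1. It held the lowest level of Pdia6, Manf and Dnajb9. Genes of other branches also had their highest or lowest SCI level there, among them Atf4 (highest) and Xbp1 (lowest). All these genes were named after their values were seen. Without SCI 3 the median log2 fold change of the 12 chaperones and folding enzymes was -0.20, against -0.10 with all libraries. Pdia4, a disulfide isomerase, had 35.4, 32.5 and 53.9 CPM in SCI, against 41.9, 36.3 and 37.1 CPM in sham. Dnajb9 (ERdj4), a co-chaperone of BiP, had 8.34, 9.10 and 5.75 CPM in SCI, against 7.75, 6.26 and 5.42 CPM in sham. Hyou1 (GRP170), a nucleotide exchange factor for BiP, averaged 4.94 ± 0.376 CPM in SCI and 5.28 ± 2.02 CPM in sham. The groups overlapped for these 3 genes.

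A further 5 folding genes had negative log2 fold changes, 3 of them with no overlap between the groups, and none was called. Pdia6, a disulfide isomerase that acts with BiP, had 78.3, 77.4 and 66.8 CPM in SCI, against 86.9, 121 and 91.9 CPM in sham. Every SCI library was below every sham library. The fold was 0.740 (95% interval 0.562 to 0.975), and the log2 fold change was -0.43 ± 0.19 (edgeR adjusted p = 0.602). Pdia6 (ENSMUSG00000020571, chromosome 12, 17266545 to 17284770) overlaps Atp6v1c2 on the other strand. Without sham 2, the highest of its libraries, the log2 fold change was -0.28.

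Pdia3, the disulfide isomerase that works with the lectin chaperones, had 113, 113 and 123 CPM in SCI, against 126, 130 and 136 CPM in sham. The groups were separate by a narrow margin, and the log2 fold change was -0.16 ± 0.17 (edgeR adjusted p = 0.919). Creld2, a disulfide isomerase induced by ER stress and also secreted, had 4.59, 5.49 and 4.76 CPM in SCI, against 5.51, 6.55 and 7.32 CPM in sham. The gap between SCI 2 and sham 1 was very small, and the log2 fold change was -0.37 ± 0.29 (edgeR adjusted p = 0.877). Pdia3 overlaps Catsper2 on the other strand, and no gene overlaps Creld2.

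Sdf2l1 and Manf were the genes with the lowest log2 fold changes of the 31. Sdf2l1, a cofactor of BiP, had 7.50, 3.03 and 4.56 CPM in SCI, against 8.93, 6.93 and 10 CPM in sham. SCI 1 lay within the range of sham, and the log2 fold change was -0.74 ± 0.34 (edgeR adjusted p = 0.668). That value was -1.18 without SCI 1 and -0.47 without SCI 2. Manf, a resident ER protein that is secreted as a neurotrophic factor, had 10.5, 11.3 and 6.34 CPM in SCI, against 10.4, 14.3 and 19.5 CPM in sham. Sham 1 lay among the SCI libraries, and the log2 fold change was -0.60 ± 0.28 (edgeR adjusted p = 0.680), or -0.38 without sham 3. Manf shares its span with 4 annotated genes, 1 of them, Rbm15b, on its own strand, so its counts are uncertain.

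The 6 genes with the ER stress response element had a median log2 fold change of -0.07, between -0.43 (Pdia6) and 0.06 (Hspa5). The 4 genes with the looser ATF4 site had a median of -0.12, between -0.34 (Trib3) and -0.02 (Herpud1). Neither Atf4 nor Ddit3 held one of the listed motifs in its window, and sequence outside the windows was not searched. Among the holders of the ER stress response element, the groups overlapped for Hspa5, Hsp90b1, Calr and Canx. They were separate, with SCI lower, for Pdia6 and Creld2, and also for Pdia3, whose window lacks the element. Such separation was found in 5.94% of all genes tested, and no link between the element and separation is read from these values.

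**Figure D3:**
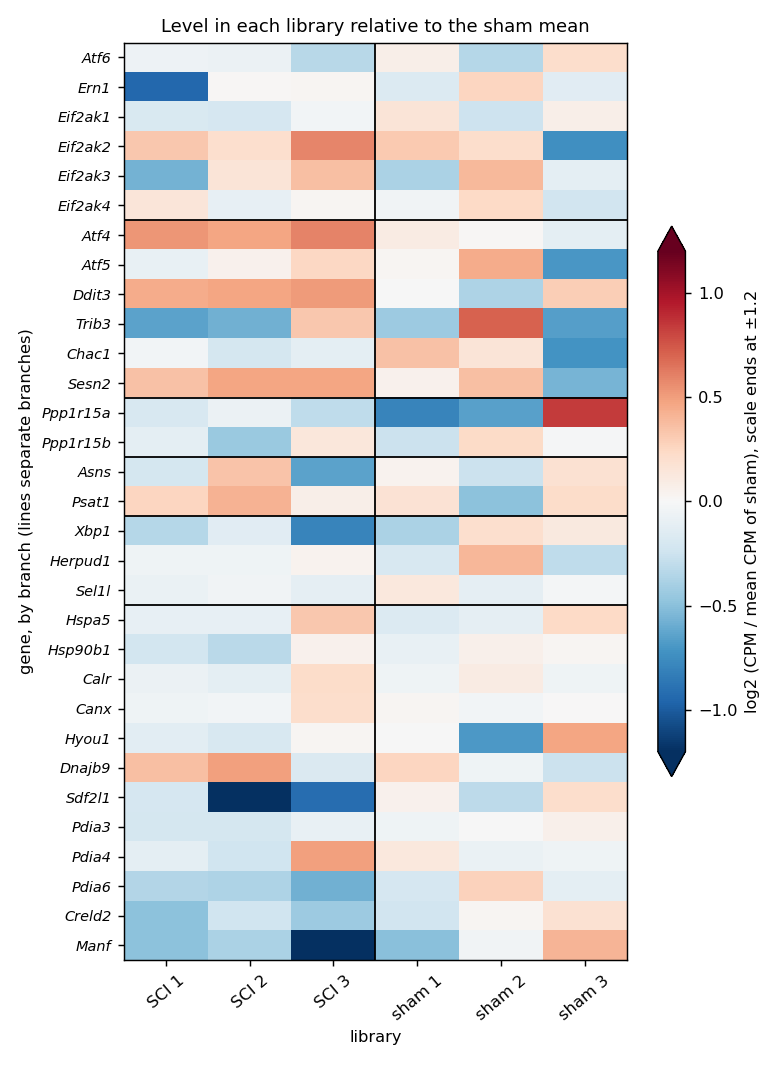
Level of each of the 31 tested genes in each library relative to the mean of the sham libraries, as log2 of the ratio of CPM (red above, blue below, scale ending at 1.2 either way), SCI libraries left of sham libraries. Atf4 and Ddit3 are red in all 3 SCI libraries, as are Sesn2, Eif2ak2 and Psat1, whose groups overlap, and Pdia6, Pdia3 and Creld2 are blue in all 3, as are Atf6, Eif2ak1, Chac1, Ppp1r15a, Xbp1, Sel1l, Sdf2l1 and Manf, whose groups overlap.

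Beyond the 32 genes, 122 others of the same pathways were listed, 113 were tested, and 1 was called, Atf3, beside 0.929% of all genes tested. These lists were chosen with earlier results of these data known, so the call is not an independent finding about the pathway. Atf3, a stress-induced transcription factor that ATF4 and other pathways turn on, had 17.7, 17.2 and 16.7 CPM in SCI, against 2.76, 1.25 and 1.36 CPM in sham. All SCI libraries were far above all sham libraries, and Atf3 rose by 3.23 ± 0.32 on the log2 scale (SE; edgeR adjusted p = 6.37e-05). For 12 of the 113 genes every SCI library was above every sham library, beside 7.73% of all genes tested. For 9 of them every SCI library was below every sham library, beside 5.94% of all genes tested. Of the 25 tested genes in the list of other ATF4 and CHOP targets, 18 had a positive and 7 a negative log2 fold change, with a median of 0.14. Among these 25, the groups did not overlap for 4 genes higher in SCI and 1 gene lower. Of the 12 cytosolic tRNA synthetases, 10 were positive and 2 negative, with a median of 0.09.

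Ddit4 (REDD1), an inhibitor of mTORC1, had 89.2, 88.5 and 73.3 CPM in SCI, against 59.3, 45.8 and 53.1 CPM in sham. The groups were separate, and the log2 fold change was 0.67 ± 0.18 (edgeR adjusted p = 0.162). With the hepatocyte level as a covariate it passed the threshold, at 0.64 (edgeR adjusted p = 0.0422). Slc7a11, the cystine importer that feeds glutathione synthesis, had 18.0, 23.8 and 12.9 CPM in SCI, against 10.1, 10.5 and 11.1 CPM in sham, also without overlap (log2 fold change 0.80 ± 0.25, edgeR adjusted p = 0.275). Among the synthetases the smallest p-values were those of Gars, Lars and Aars, for glycine, leucine and alanine, with log2 fold changes of 0.29 ± 0.18, -0.24 ± 0.19 and 0.20 ± 0.17 (edgeR adjusted p = 0.808, 0.877 and 0.886). Gars and Aars had separate groups, higher in SCI, and the groups of Lars overlapped. Gars was at 0.19 without sham 2.

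The remaining lists held genes of both signs, as did all genes tested, with 6734 positive and 6826 negative. Of 29 tested genes of ER entry and folding, 12 were positive and 17 negative (median log2 fold change -0.10), of 20 degradation genes 8 and 12 (median -0.06), and of 16 genes for eIF2 and its regulators 5 and 11 (median -0.07). The 11 other ER stress regulators were 5 and 6, with a median of 0. Pdia5, a disulfide isomerase of the same family as Pdia6, had 11.8, 13.1 and 10.9 CPM in SCI, against 18.8, 25.7 and 14.6 CPM in sham. The groups were separate, and the log2 fold change was -0.74 ± 0.24 (edgeR adjusted p = 0.321). Eif2b1, a subunit of the exchange factor that reloads eIF2, had 6.17, 6.64 and 6.94 CPM in SCI, against 10.1, 10.2 and 9.22 CPM in sham. Its groups were separate too, at a log2 fold change of -0.59 ± 0.25 (edgeR adjusted p = 0.587).

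The other genes with the smallest p-values of these lists were also not called. Dnajb11, Syvn1, Edem3 and Atf6b had separate groups, lower in SCI, and Wfs1 had separate groups, higher in SCI. The groups overlapped for Eif2b4, Eif2a, Sec61b, Edem2 and Tmbim6. Eif2b4, another subunit of the exchange factor eIF2B, had a log2 fold change of 0.26 ± 0.18, and Eif2a, an alternative initiation factor, one of -0.27 ± 0.21 (edgeR adjusted p = 0.854 and 0.871). Dnajb11 (ERdj3), the co-chaperone that Sdf2l1 binds, had a log2 fold change of -0.37 ± 0.19, and Sec61b, of the translocation channel, one of -0.50 ± 0.26 (edgeR adjusted p = 0.718 and 0.737); without sham 2 the value for Sec61b was -0.19. Syvn1 (HRD1), the ubiquitin ligase that Sel1l serves, was at -0.91 ± 0.43, and the mannose-trimming proteins Edem3 and Edem2 were at -0.67 ± 0.27 and -0.44 ± 0.24 (edgeR adjusted p = 0.684, 0.546 and 0.747), with Syvn1 at -0.59 without SCI 3. Atf6b, the paralogue of Atf6, was at -0.68 ± 0.27, Tmbim6, an inhibitor of cell death in the ER membrane, at -0.47 ± 0.25, and Wfs1, the wolframin gene, at 0.44 ± 0.25 (edgeR adjusted p = 0.504, 0.742 and 0.758). Without sham 2, its highest library, Tmbim6 was at -0.12.

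**Figure D4:**
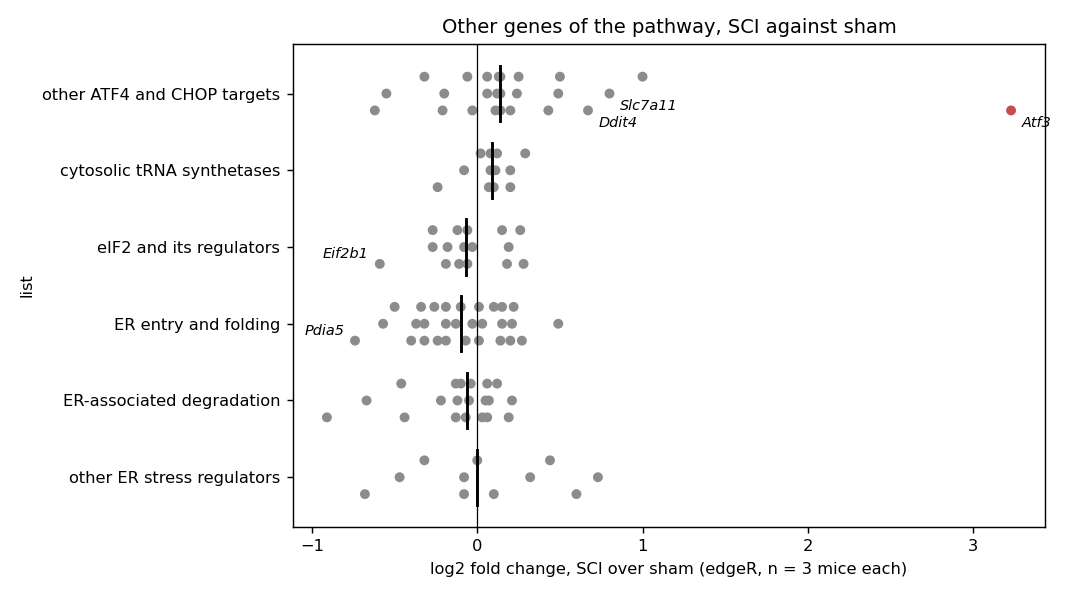
Log2 fold change of SCI over sham for the 113 tested genes of 6 further lists, 1 point per gene (red if called, grey if not, n = 3 mice each), with the median of each list as a black bar. Atf3 at 3.23 is the one called gene, and the list medians lie between -0.10 and 0.14.

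Total counts lay between 5364263 and 8229961 in SCI and between 3407176 and 11543633 in sham, and all markers of neurons, oligodendrocytes, astrocytes, microglia and endothelium on the lists were detected in every library. Of these, P2ry12, a purinergic receptor of microglia, was called lower, with 1.45, 3.03 and 1.59 CPM in SCI, against 8.01, 6.55 and 8.68 CPM in sham (log2 fold change -1.91 ± 0.37, edgeR adjusted p = 0.0157). It was the 1 called gene of the 8 microglia markers. Their sum was 321, 345 and 393 CPM in SCI, against 358, 328 and 324 CPM in sham, with a median log2 fold change of -0.2. Hepatocyte transcripts were present in every library. Their source in these spinal cord libraries is not known, and the part of such RNA in the levels of the 31 genes was not tested. The 16 hepatocyte markers took 6.60%, 6.44% and 6.17% of counts in SCI and 6.79%, 9.93% and 5.14% in sham, with Alb, the liver's albumin gene, among them. Levels of 6 of the 31 genes (19.4%) followed the sham order of that share, sham 2 above sham 1 above sham 3, beside 27.0% of all genes, and they were Eif2ak4, Atf5, Trib3, Sesn2, Herpud1 and Calr. Another 6 (19.4%) had the opposite order, beside 26.5% of all genes, and they were Atf6, Ddit3, Asns, Psat1, Hyou1 and Sdf2l1. With the hepatocyte level as a covariate the log2 fold change was 0.54 for Atf4, 0.41 for Ddit3 and -0.35 for Pdia6. Summed erythroid markers were at 3051, 1735 and 4060 CPM in SCI, against 884, 723 and 704 CPM in sham, with 5 of the 7 tested called higher, and summed neutrophil markers were at 55.4, 78.5 and 64.3 CPM in SCI, against 27.8, 43.7 and 17.0 CPM in sham, with 0 of 6 called. These sums and the levels of Atf4 and Ddit3 were higher in every SCI library, and the part of blood cells in those levels was not tested.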

How the data were processed

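RNA was measured in spinal cord of 3 SCI and 3 sham mice with 3′ libraries (Lexogen QuantSeq Forward kit, 50-base single reads, per the labels). The authors deposited whole-number counts per Ensembl gene, 1 table per sample, not normalized. Per the submitters' processing notes STAR 2.7.2b and DESeq2 1.24.0 were used, with genome mm10. How reads were counted (the tool, the strand, multiply mapped reads, molecular identifiers) is not given in the sources used here.

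Symbols came from a separate list of gene names, matched by Ensembl identifier. Positions, overlapping genes and pseudogene names came from GENCODE M21 (GRCm38). Genes passing edgeR's filterByExpr by group were scaled by TMM and fitted by edgeR's robust quasi-likelihood F test (edgeR 4.0.16, R 4.3.3) without covariates, with Benjamini-Hochberg adjustment over 13560 genes and calls at 0.05. Log2 fold changes use a prior count of 0.125; the standard error is the fold change divided by the root of F, and 95% intervals use the test's degrees of freedom. Alternatives were 8 other settings, among them DESeq2 1.42.0 and limma voom 3.58.1, and 6 fits that leave out a library. A count of 3 equals 0.260 to 0.880 CPM across libraries. The p-values set the difference between groups against the spread between mice, with the spread of each gene moderated by that of all genes tested. Library pairs of a group differed beyond sampling noise (chi-square per degree of freedom 6.97 to 38.0), so none was counted as a duplicate. All 32 genes could be named, with values in every library for those whose groups do not overlap, and the 3 genes with the smallest p plus every called gene of each further list. Values in every library are also given for other genes. The members and lists were chosen with earlier results of these data known. The fit was tested on simulated data.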

Additional observations from a re-analysis of the deposited data

How the results depend on the processing

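None of the 32 genes was called in any of the 14 alternatives. Counts over all genes ran from 62 higher and 1 lower (without sham 1) to 182 and 42 (no filter), against 120 and 6; they were 141 and 11 with DESeq2, 151 and 15 with a hepatocyte covariate, 112 and 12 without sham 2 and 132 and 14 without sham 3. The further lists held 1 called gene except with the hepatocyte covariate, which gave 2 (Atf3 and Ddit4). With the replicate block, which used the replicate numbers of the labels, 81 genes were higher and 1 lower, and no call among the 32 genes changed. After centring within each group, SCI and sham libraries of the same number correlated at -0.08, -0.07 and -0.17. The labels do not say that the numbers pair mice. These correlations cannot decide it, because libraries of different numbers were not compared. Leaving out 1 library put the median log2 fold change of the chaperones between -0.20 and -0.04.

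Some uncalled genes changed sign, with an adjusted p of at least 0.743 in every such alternative (limma's where limma voom is named, otherwise edgeR's), and the cause was not tested. Eif2ak3 was at 0.03 with total counts and 0.12 with the hepatocyte covariate, and Trib3 at 0.06 with that covariate. Ppp1r15a was at 0.23 with limma voom and 0.04 with the replicate block. Herpud1 was at 0.02 with total counts, 0.04 with limma voom, 0.02 with the replicate block and 0.12 with the hepatocyte covariate, and Hyou1 at 0.11 with limma voom. Leaving out 1 library moved Ern1 between -0.43 and 0.01, Eif2ak3 between -0.21 and 0.26, Atf5 between -0.18 and 0.34, Trib3 between -0.69 and 0.25, Chac1 between -0.37 and 0.02, Ppp1r15a between -0.35 and 0.53, Ppp1r15b between -0.28 and 0.01, Asns between -0.38 and 0.10, Herpud1 between -0.15 and 0.22, Hspa5 between -0.11 and 0.19, Calr between -0.11 and 0.08, Canx between -0.05 and 0.10, Hyou1 between -0.33 and 0.22 and Pdia4 between -0.19 and 0.21. Phgdh, tested with no filter, rested on 37 counts. At this depth the intervals of Trib3, Ppp1r15a, Sdf2l1 and Manf reach past 2-fold.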
